A study of Mus musculus with 2 samples.

Results

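The clustered protocadherins are 58 mouse genes that lie side by side in 3 arrays on 1 chromosome and encode cadherin-like adhesion proteins of the neuronal surface. They were taken by symbol, as all genes whose name begins with Pcdha, Pcdhb, Pcdhga, Pcdhgb or Pcdhgc, and make up 58 of the 55536 annotated genes in the gene table. The alpha array holds 14 of them, of which 12 are alternate genes and 2, Pcdhac1 and Pcdhac2, are of the C type. The beta array holds 22 genes. The gamma array also holds 22, of which 12 belong to the A subfamily, 7 to the B subfamily and 3, Pcdhgc3, Pcdhgc4 and Pcdhgc5, to the C type. The 58 gene IDs carry 57 different symbols and 89 annotated transcripts.

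In each array a row of large first exons, each behind its own promoter, codes for the extracellular cadherin domains, the membrane span and a short cytoplasmic stretch. In the alpha and gamma arrays the chosen first exon is spliced to the same constant exons, which code for a shared cytoplasmic tail, whereas beta genes have no such tail. Individual neurons are known to switch on a small set of the alternate genes, a choice tied to DNA methylation and to looping by CTCF and cohesin, while C-type genes are under separate control. The proteins bind like with like between cell membranes, and this is known to underlie the self-avoidance of dendrites and axons, in which branches of 1 neuron recognise and spare each other.

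Total RNA was sequenced from the hippocampus of 2 adult male mice of the strain B6CASTF1/J, the first-generation hybrid of C57BL/6J and CAST/EiJ, with 1 library per animal. Both animals were 8 to 10 months old, and 300 ng of RNA entered each library. Replicate 1 came from the mouse numbered animal 2 and replicate 2 from animal 4, although a single donor entry covers both. The labels call the tissue a layer of hippocampus without naming the layer. Ribosomal RNA had been reduced, ERCC spike-ins (synthetic control RNAs) had been added, and a strand-specific library kit was used. Both libraries belong to 1 untreated group, so every test below compares 2 libraries, not conditions, and animal, dissection and library cannot be told apart. Each gene has 1 value per library, with both parental alleles counted together.

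The gene tables held 23408838 expected counts on annotated genes in replicate 1 and 29512441 in replicate 2. The 58 genes took 0.105% of these counts in replicate 1 and 0.104% in replicate 2. Levels are given in TPM (transcript abundance per length, scaled to a fixed library sum) from the gene table, called the first quantifier here, with its lower and upper credible bounds. These bounds cover the division of reads within a library and no spread between animals. A second quantifier, a separate transcript table made from the same reads, gave a second TPM for every gene. All 5 markers of hippocampal excitatory neurons were present, with Slc17a7, the vesicular glutamate transporter, at 612 TPM in replicate 1 and 631 TPM in replicate 2. Markers of serotonergic neurons, a cell type known for a strong need of Pcdhac2, were at or near 0, with Tph2 at 0.34 TPM in replicate 1 and 0.37 TPM in replicate 2. Choroid plexus markers differed between the libraries, with a summed level over 9 genes of 17.9 TPM in replicate 1 and 1792 TPM in replicate 2, most of it Ttr.

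All 58 genes lie on the plus strand of chromosome 18 between positions 36930184 and 37841873 of the mm10 assembly, a stretch of 912 kb. The alpha array spans 257 kb (36930184 to 37187661), the beta array 260 kb (37264938 to 37524479) and the gamma array 180.1 kb (37661793 to 37841873). In the GENCODE M21 annotation all 14 alpha genes share 3 constant exons of 59, 89 and 2712 bases. All 22 gamma genes share 2 constant exons of 59 and 89 bases, and 17 of the 22 also share another of 1971 bases in the same annotated form. No exon was shared in this way among the beta genes.

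The shared exons limit how much of each gene's sequence can be told from its neighbours. When the annotated transcripts were divided into all overlapping stretches of 31 bases, the median share found in no other gene was 88.2% for beta genes, with a range from 77.5% to 100%. It was 49.6% for C-type alpha genes, against 35.9% for alternate alpha genes, and 61.8% for C-type gamma genes, against 54.2% for gamma A and 47.7% for gamma B genes. The stretches of a gene were pooled over all its annotated transcripts, retained-intron transcripts included. Each C-type gamma gene has a retained-intron transcript, as do Pcdhga9, Pcdhga12, Pcdhgb2 and Pcdhgb5 but no other gamma gene. How far these transcripts raised the C-type gamma share was not tested. Pcdha4 had the lowest share, 9.32%, with 57.3% of its stretches found in other members and 33.4% found outside the family only. The predicted genes Gm42416, Gm38182, Gm36858, Gm37388 and Gm37013, which lie among the arrays, hold 2801, 1443, 825, 372 and 255 of these stretches. Beta levels therefore rest mostly on sequence of the gene itself, and alpha and gamma levels depend more on how each program divides shared reads.

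Nearly the whole family was present in adult hippocampus. At a level of 1 TPM or more in both libraries, 57 of the 58 genes were detected, beside 13029 of 22028 protein-coding genes, or 59.1%. By the second quantifier 54 of the 58 passed. The gene that did not pass by either was Pcdhb1, the first gene of the beta array, at 0.17 TPM in replicate 1 and 0.32 TPM in replicate 2, from 6 and 15 expected counts. Single genes were low: the median of the 58 was 4.02 TPM in replicate 1 and 3.59 TPM in replicate 2. Of the protein-coding genes detected in both libraries, 14.2% lay below that median in replicate 1 and 13.9% in replicate 2. In bulk tissue a level of this kind cannot separate a gene used at a high level in few cells from a gene used at a low level in many.

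The gamma array held most of the family's RNA. Its genes summed to 264 TPM in replicate 1 and 262 TPM in replicate 2 (mean 263 ± 1.62, SD, n = 2). The beta genes summed to 75.1 TPM in replicate 1 and 63.4 TPM in replicate 2 (mean 69.3 ± 8.26, SD, n = 2), and the alpha genes to 58.2 TPM and 55.6 TPM (mean 56.9 ± 1.82, SD, n = 2). The gap between gamma and each of the other arrays was many times the spread between the libraries. Beta was above alpha in both libraries, by a gap nearer in size to the spread of the beta sum. As a share of all 58 genes, gamma took 66.5% in replicate 1 and 68.8% in replicate 2. By the second quantifier the same share was 65.5% in replicate 1 and 65.9% in replicate 2, on lower sums of 204 TPM and 186 TPM (mean 195 ± 13.1, SD, n = 2). The gamma sum thus varied more between the libraries by the second quantifier. It also varied more by the first with 1 Pcdhgc4 transcript, described below, left out (mean 239 ± 17.3, SD, n = 2), a step chosen after seeing the data.

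The 5 C-type genes held a large part of the family's RNA. They summed to 149 TPM in replicate 1 and 173 TPM in replicate 2, which was 37.4% and 45.4% of the family total, against 249 TPM and 208 TPM for the 53 alternate genes. By the second quantifier the C-type sum was alike in both libraries, at 108 TPM in replicate 1 and 109 TPM in replicate 2, or 34.8% and 38.7% of the total. Within the alpha array, the C-type genes took 32.3% in replicate 1 and 41.3% in replicate 2 (mean 36.8% ± 6.33, SD, n = 2). The second quantifier put this share at 31.5% in replicate 1 and 41.1% in replicate 2. Within the gamma array, they took 49.2% in replicate 1 and 57.3% in replicate 2 (mean 53.2% ± 5.74, SD, n = 2) by the first quantifier, but 45.6% and 48.4% by the second. The C-type share was thus higher in replicate 2 by both programs in both arrays, while the size of the gamma difference depended on the program. Choroid plexus markers were also higher in replicate 2, and their part in these shares was not tested.

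**Figure D1:**
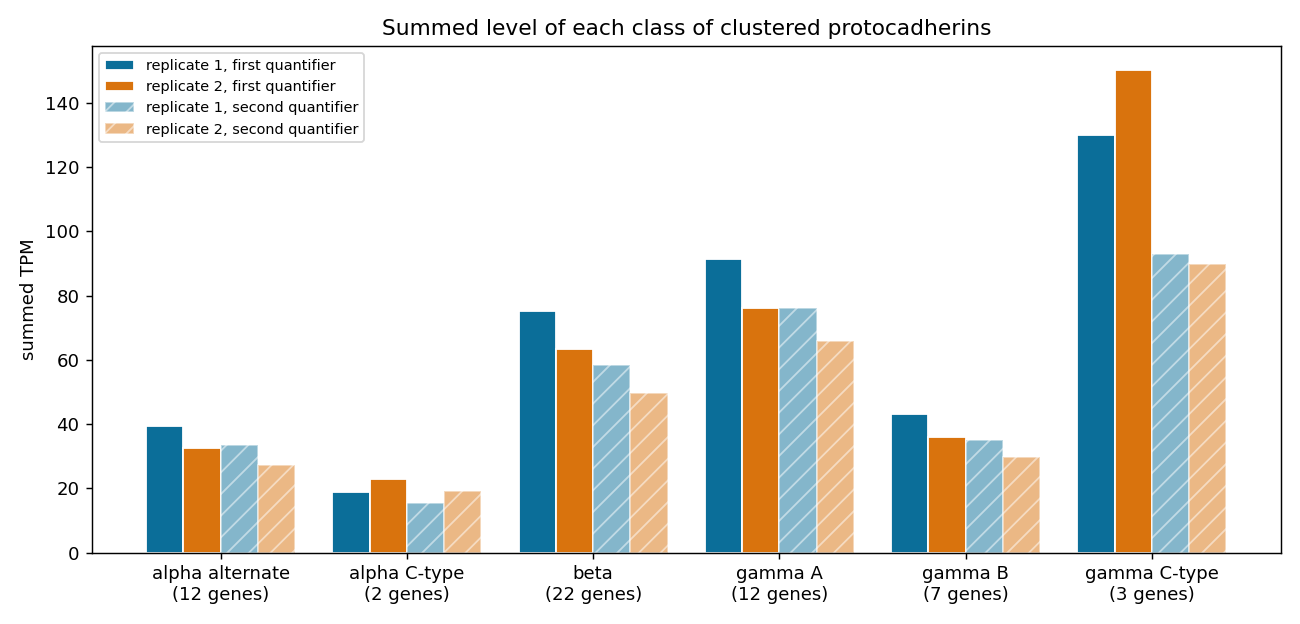
Summed TPM of each class of clustered protocadherins (vertical axis) in replicate 1 and replicate 2, solid bars from the first quantifier and hatched bars from the second. The 3 gamma C-type genes form the tallest pair of bars by both programs, at 130.1 and 150.2 TPM by the first and 93.1 and 89.9 TPM by the second, and the 12 alternate alpha genes together reach 39.4 and 32.7 TPM.

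Pcdhgc5, the last gene of the gamma array, had the highest level of the family, 69.2 TPM in replicate 1 (bounds 63.1 to 70.1) and 68.4 TPM in replicate 2 (bounds 62.6 to 70.3). The libraries overlapped almost completely for this gene, and by the second quantifier it was also the highest, at 53.9 TPM in replicate 1 and 50.4 TPM in replicate 2. The first quantifier's totals include a transcript of 593 bases, ENSMUST00000193941.1, at 4.65 TPM in replicate 1 and 10.1 TPM in replicate 2. The second quantifier put it at or near 0. The main transcript, ENSMUST00000055935.10, had 62.6 TPM in replicate 1 and 57.2 TPM in replicate 2 by the first quantifier. Pcdhgc3, the gamma gene known to act in cortical dendrite branching, had 38.96 TPM in replicate 1 and 38.6 TPM in replicate 2 (mean 38.8 ± 0.240, SD, n = 2). Its bounds lay below those of Pcdhgc5 in both libraries and overlapped between the libraries. Pcdhgc4, the C-type gamma gene known in mice to be needed for the survival of cortical interneurons and for life after birth, had 21.9 TPM in replicate 1 (bounds 14.6 to 27.9) and 43.2 TPM in replicate 2 (bounds 36.4 to 47.2). Its bounds did not overlap between the libraries, and its wide bounds set it apart from the other C-type genes.

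Pcdhac2, the last gene of the alpha array and the isoform known to be required for the tiling of serotonergic axons, had 16.0 TPM in replicate 1 (bounds 14.2 to 16.2) and 20.1 TPM in replicate 2 (bounds 18.4 to 20.4). It was lower in replicate 1, with bounds apart. Pcdhac1, its C-type neighbour, had only 2.78 TPM in replicate 1 and 2.81 TPM in replicate 2 (mean 2.80 ± 0.0212, SD, n = 2), inside the range of the alternate alpha genes. The C-type label therefore did not mark a high level in every case: 4 of the 5 C-type genes averaged above the highest alternate gene, Pcdhga11, and Pcdhac1 did not. Pcdhga11 had 13.1 TPM in replicate 1 and 12.2 TPM in replicate 2, with overlapping bounds. That order held for 3 of the 5 by the second quantifier, where Pcdhgc4 had 7.33 TPM in replicate 1 and 6.72 TPM in replicate 2, below 10.7 and 10.4 TPM for Pcdhga11.

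**Figure D2:**
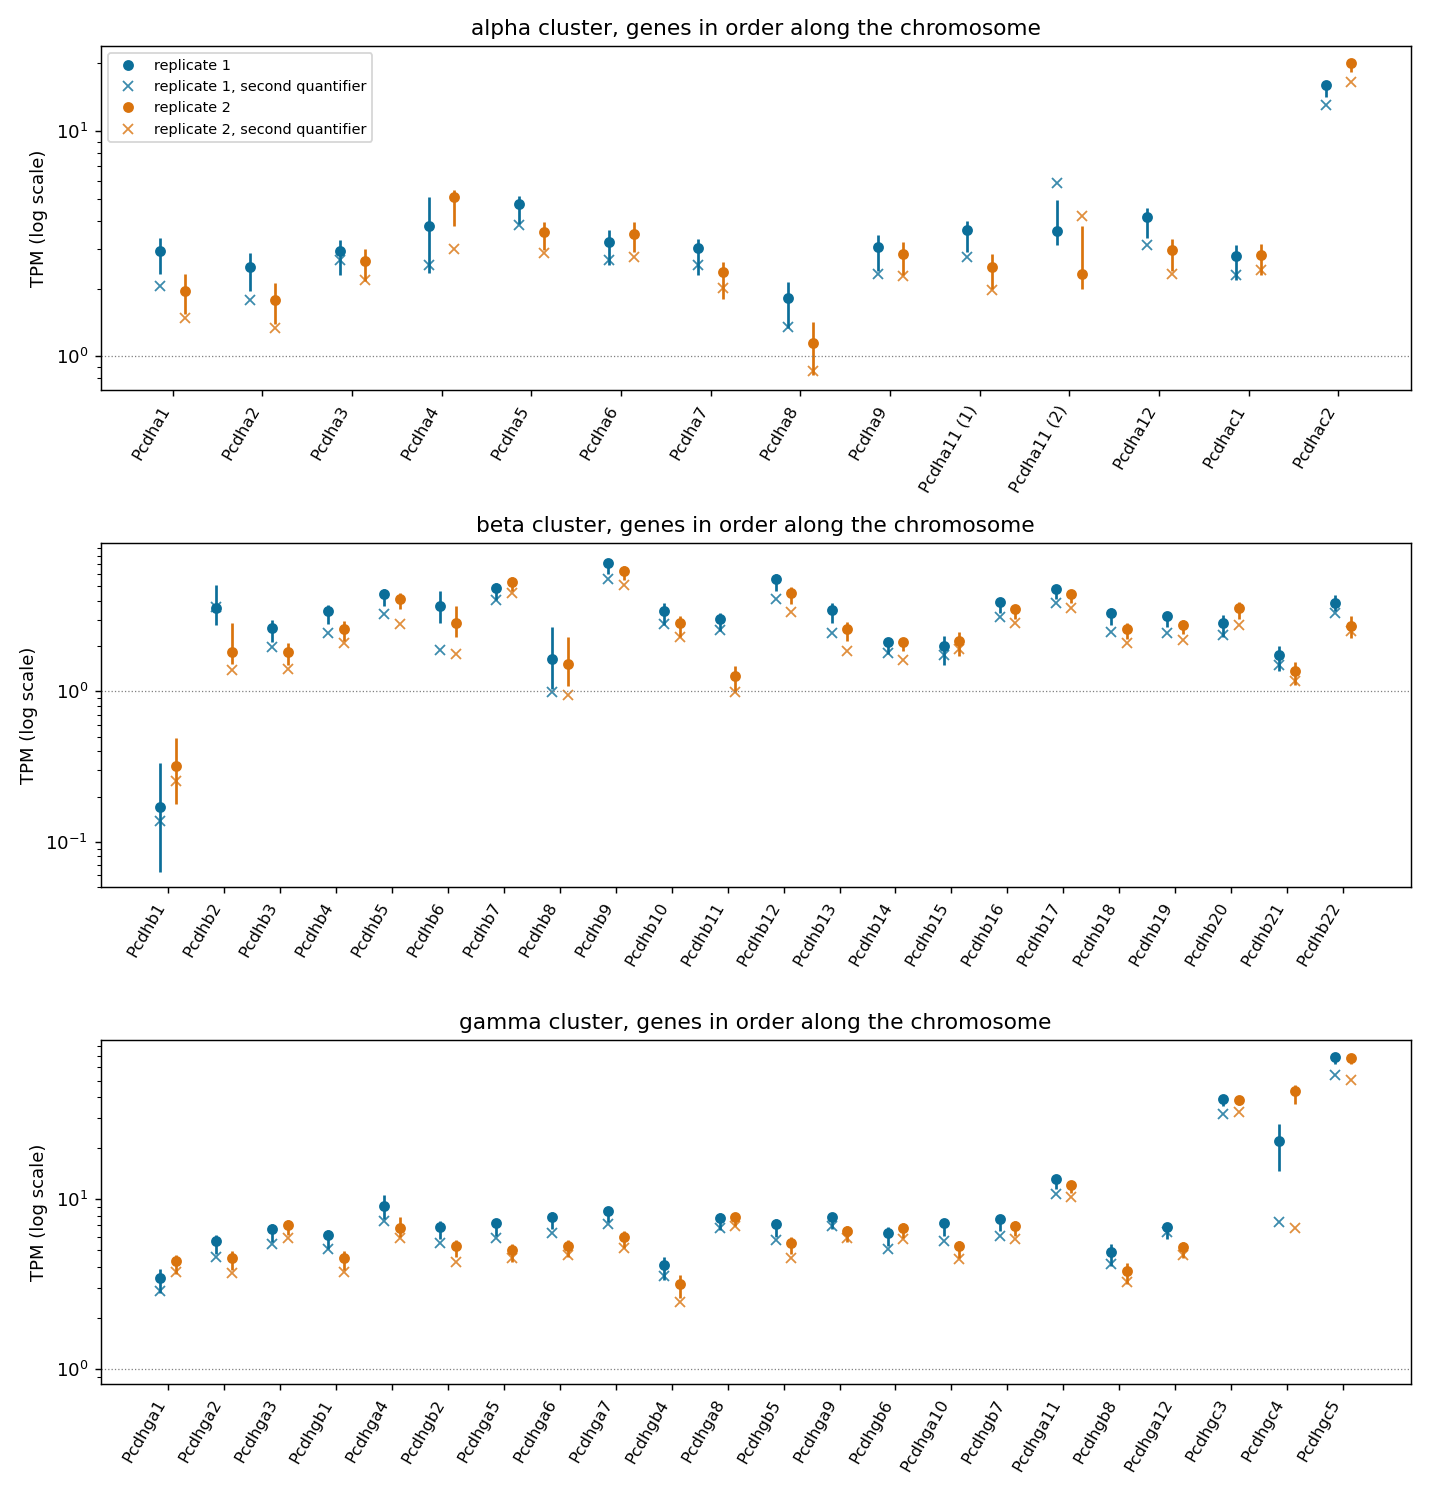
TPM on a log scale for each of the 58 genes, 1 panel per array, with genes in their order along the chromosome. Points with bars are the first quantifier's level and its credible bounds, crosses are the second quantifier, and the dotted line marks 1 TPM. The C-type genes at the right end of the gamma panel reach 69.2 TPM, Pcdhb1 at the left end of the beta panel is the only gene under the line by the first quantifier, and Pcdhgc4 shows the widest gap between points and crosses.

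Below the C-type genes the alternate genes of an array were close to each other. Among the 12 alternate alpha genes the mean level varied 3.01-fold. By the first quantifier Pcdha4 had the highest mean, at 3.79 TPM in replicate 1 and 5.11 TPM in replicate 2, and Pcdha5 followed at 4.75 TPM and 3.58 TPM. Which of these 2 genes was higher differed between the libraries, and their bounds overlapped. The second quantifier instead put Pcdha11 with ID ENSMUSG00000102206.5 highest, at 5.87 TPM in replicate 1 and 4.21 TPM in replicate 2. Of this level, 2.94 TPM in replicate 1 and 2.44 TPM in replicate 2 lay on a transcript of 625 bases. That transcript had 20.7 and 23.1 estimated counts, and the whole gene 206 and 188, against 357 and 359 for Pcdha5. The second quantifier gave Pcdha4 2.55 TPM in replicate 1 and 3.01 TPM in replicate 2. The lowest alpha gene was Pcdha8, at 1.81 TPM in replicate 1 and 1.15 TPM in replicate 2. The 12 gamma A genes varied 3.27-fold and the 7 gamma B genes 2.00-fold. The lowest gamma gene by mean level was Pcdhgb4, at 4.10 TPM in replicate 1 and 3.17 TPM in replicate 2. In replicate 1 alone Pcdhga1 was lower, at 3.42 TPM. By mean level, even the lowest gamma gene was thus near the upper end of the alternate alpha range. Pcdhgb8, which the annotation lists as a polymorphic pseudogene, was at 4.90 TPM in replicate 1 and 3.75 TPM in replicate 2, within the range of the other gamma B genes.

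The beta array had no C-type gene and no dominant member. Its highest gene was Pcdhb9, at 7.18 TPM in replicate 1 and 6.33 TPM in replicate 2. Pcdhb7 followed with 4.88 TPM in replicate 1 and 5.37 TPM in replicate 2, and Pcdhb12 with 5.57 TPM and 4.53 TPM. The bounds of these 3 genes overlapped in at least 1 library for each neighbouring pair. Pcdhb9 held 9.75% of the beta total, compared with 31.8% of the alpha total for Pcdhac2 and 26.1% of the gamma total for Pcdhgc5. It took 8 genes to reach 50% of the beta total, compared with 4 for alpha and 3 for gamma. The 27.6-fold range of the beta genes came from Pcdhb1 alone, since the next lowest, Pcdhb21, averaged 1.56 TPM.

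When the genes of an array were ordered by mean level, few neighbours in that order were separated, meaning that the bounds of the higher gene lay above those of the lower gene in both libraries. In the alpha array 1 of 13 steps was separated, that from Pcdhac2 to Pcdha4. In the beta array 1 of 21 was separated, that from Pcdhb21 to Pcdhb1. In the gamma array 3 of 21 were separated, those from Pcdhgc5 to Pcdhgc3, from Pcdhgc4 to Pcdhga11 and from Pcdhga11 to Pcdhga4. Over all pairs within an array, 28 of 91 alpha pairs, 105 of 231 beta pairs and 123 of 231 gamma pairs were separated. The order among most alternate genes is therefore not resolved by these libraries.

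Once C-type genes were set aside, the relation of level to place along the array was weak in beta and gamma and differed between the libraries in alpha. Spearman's rho of level with gene order was 0.41 in replicate 1 and 0.08 in replicate 2 over 12 alternate alpha genes, -0.03 and 0.15 over 22 beta genes, and 0.26 and 0.21 over 19 gamma A and B genes. By the second quantifier rho was 0.50 in replicate 1 and 0.28 in replicate 2 for alpha, 0.01 and 0.28 for beta, and 0.33 and 0.22 for gamma A and B. Points in these comparisons share a library and, in alpha and gamma, shared exons.

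The level profile itself was alike in both animals. Across the 58 genes, log2(TPM + 1) correlated between the libraries with Pearson's r = 0.96 and Spearman's rho = 0.92, and over the 53 alternate genes with r = 0.93. Within classes r was 0.77 for 12 alternate alpha genes, 0.90 for 22 beta genes and 0.83 for 19 gamma A and B genes. Spearman's rho was 0.78 for alternate alpha, 0.85 for beta and 0.69 for gamma A and B genes, so ranks were less alike within classes. These values describe genes, which are not independent replicates, and both libraries were quantified on the same annotation.

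Whether single genes differed between the libraries by more than the trend of all genes was tested with edgeR's residual deviance. The model had 1 common level and covered 16123 genes, with Benjamini-Hochberg adjustment. Of the 57 clustered protocadherins tested, 1 had an adjusted p under 0.05, beside 0.806% of all genes tested, and 3 had an unadjusted p under 0.05, beside 4.83% of all genes. Pcdhb1 was too low to be tested. The gene called was Pcdhgc4, with 931 expected counts in replicate 1 and 2104 in replicate 2 and a log2 ratio of replicate 1 over replicate 2 of -0.86 (adjusted p = 0.00868, edgeR). The call was lost with ERCC scaling (adjusted p = 0.947, edgeR), a common dispersion (0.466), DESeq2's likelihood ratio test (adjusted p = 0.0577) and the second quantifier. The other 2 were Pcdhac2, with a log2 ratio of -0.45 (adjusted p = 0.876, edgeR), and Pcdhb11, with 1.12 (adjusted p = 0.959, edgeR). In simulated data a 2-fold difference was recovered in 4.4% of genes and a 4-fold difference in 68.8%. The changed genes were drawn at random over all levels, with the fitted trend as the true spread. Most 2-fold differences would thus not be called in such data, and recovery at the members' own counts was not measured.

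By the second quantifier 0 of 57 were called, beside 0.683% of all genes, and 2 had an unadjusted p under 0.05.

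The genes at both ends of the ratio scale were compared across the programs. Pcdhb11 had 3.05 TPM in replicate 1 and 1.27 TPM in replicate 2 by the first quantifier, and 2.54 TPM and 0.991 TPM by the second, with bounds apart. Pcdhb2, the next highest ratio, had 3.60 TPM in replicate 1 and 1.84 TPM in replicate 2, a log2 ratio of 0.67 with overlapping bounds (adjusted p = 1.00, edgeR). Pcdhga1, the first gamma gene, had 3.42 TPM in replicate 1 and 4.30 TPM in replicate 2, a log2 ratio of -0.66 with overlapping bounds (adjusted p = 1.00, edgeR). Of the 4 genes at the ends of the scale, Pcdhgc4 was the one whose ratio was near 0 by the second quantifier, at -0.06 (adjusted p = 1.00, edgeR).

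**Figure D3:**
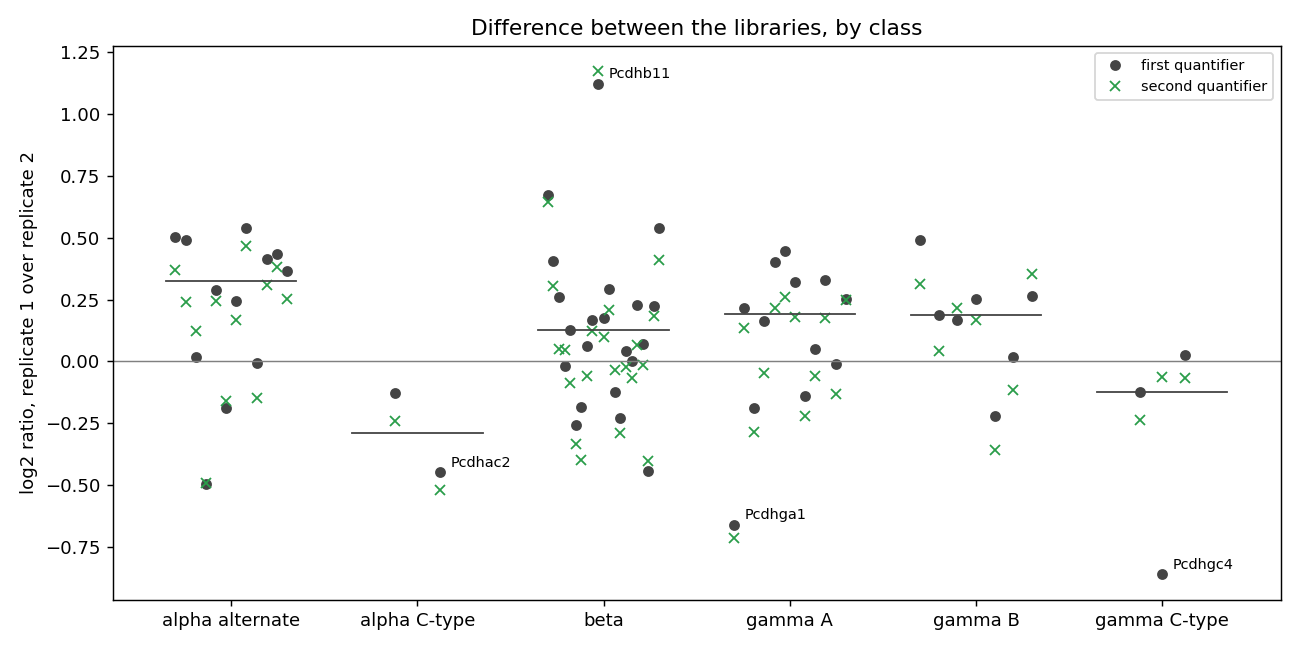
Log2 ratio of replicate 1 over replicate 2 for the 57 genes tested, by class, from the first quantifier (dots) and the second (crosses), with a short line at each class median of the dots. Alternate classes have medians between 0.13 and 0.33, 4 of the 5 C-type dots lie below 0 (2 of the 5 with ERCC scaling), and Pcdhgc4 is the dot farthest from its cross.

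The log2 ratio was above 0 for 1 of 5 C-type genes, with a median of -0.13, and for 38 of 52 alternate genes tested, with a median of 0.18, beside 50.2% of all genes tested. None of the 52 was called, and the difference between the 2 kinds of gene was not tested. By class the medians were 0.33 for alternate alpha genes (9 of 12 above 0), 0.13 for beta genes (15 of 21), 0.19 for gamma A genes (8 of 12) and 0.19 for gamma B genes (6 of 7). By the second quantifier 0 of 5 C-type genes were above 0 and 31 of 52 alternate genes, with a median of 0.11, beside 49.8% of all genes. Scaling by ERCC spike-ins moved the median of all genes to 0.23 and that of the 57 members to 0.39, with 50 of 57 members above 0, beside 83.1% of all genes, a share near that background, and the C-type genes Pcdhac1 and Pcdhgc3 turned positive, at 0.10 and 0.11. By TPM bounds, 13 of the 58 genes were higher in replicate 1 with bounds apart, beside 21.9% of all genes tested, and Pcdhac2 and Pcdhgc4 were lower, beside 3.97%. In either direction, bounds were apart for 25.8% of all genes, so the members' share is near that background. Of the choroid plexus markers 8 of 9 were called, all lower in replicate 1 and with none at 0, which is the direction of Pcdhac2 and Pcdhgc4, and their part in these ratios was not tested.

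The difference in Pcdhgc4 between the libraries lay in 1 of its 3 transcripts. This transcript, ENSMUST00000195239.1, is annotated as protein-coding and has 2272 bases, of which 93.3% are the 3 constant exons common to the gamma genes and 153 lie outside them, and 1.25% of its 31-base stretches occur in no other transcript. The first quantifier gave it 13.2 TPM in replicate 1 and 35.4 TPM in replicate 2, from 405 and 1462 expected counts. The second quantifier listed it at 0 in both libraries. For ENSMUST00000066140.12, the longest protein-coding transcript of the gene, the programs gave 5.84 and 5.84 TPM in replicate 1 and 5.33 and 5.53 TPM in replicate 2, the first quantifier's value given first. With ENSMUST00000195239.1 left out, a step chosen after seeing the data, the gene had 8.68 TPM in replicate 1 and 7.84 TPM in replicate 2, and its log2 ratio was 0.03 (adjusted p = 1.00, edgeR).

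A neighbouring gene also differed between the programs. Gm38182, annotated as a processed transcript, lies inside the gamma array and has 5 transcripts, of which 44.9% to 86.6% are constant-exon sequence. The first quantifier gave it 1.68 TPM in replicate 1 and 2.66 TPM in replicate 2, and the second 13.7 TPM and 45.2 TPM. ENSMUST00000195239.1 and Gm38182 together held 425 expected counts in replicate 1 and 1498 in replicate 2 by the first quantifier, and 45.2 and 345 by the second. Both programs thus placed more reads on short transcripts made largely of gamma constant exons in replicate 2, on different genes and in different amounts, and the cause was not tested. Pcdhgc4 levels by the first quantifier, and the C-type gamma share that includes them, hold with this limit.

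**Figure D4:**
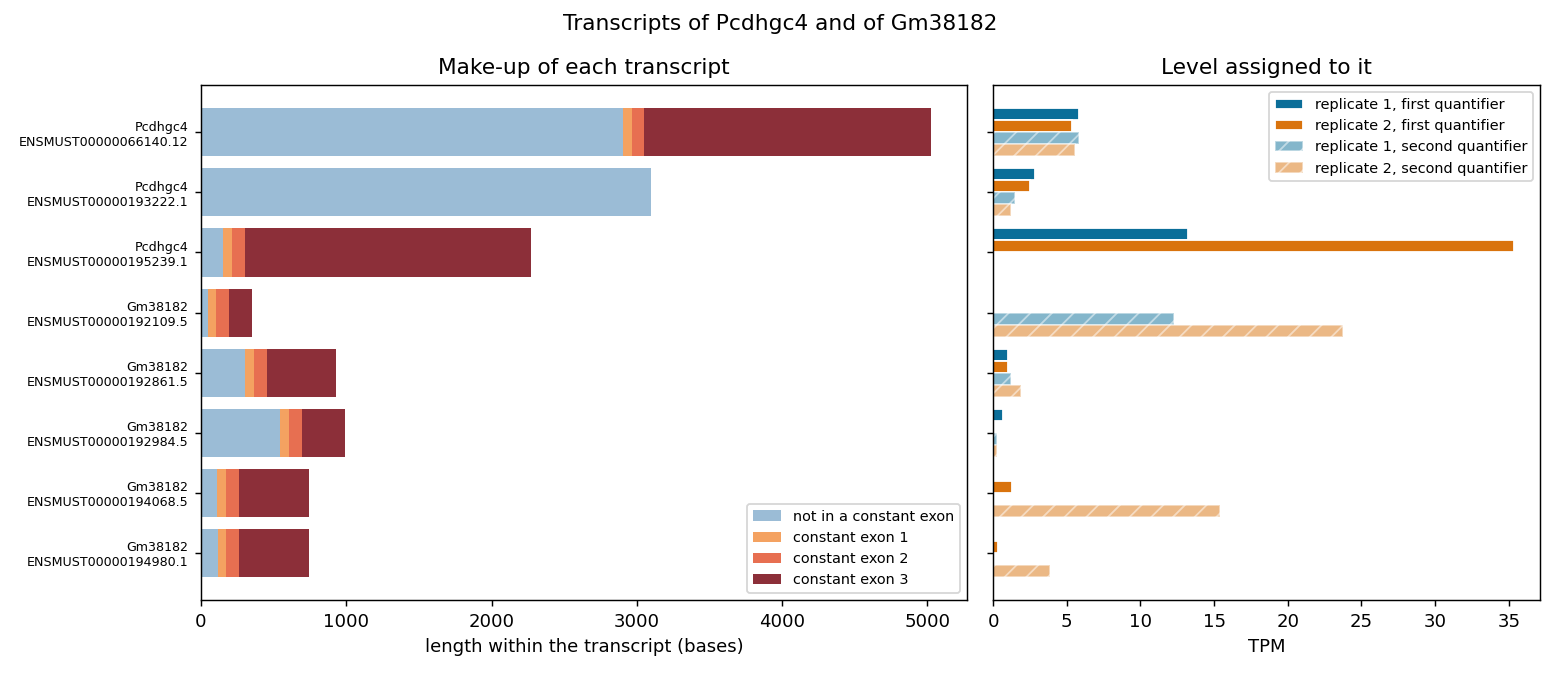
Left, length in bases of each transcript of Pcdhgc4 and of Gm38182, coloured by the part that lies in the gamma constant exons. Right, TPM given to each transcript in replicate 1 and replicate 2 by the first (solid) and second (hatched) quantifier, where the first places 35.4 TPM of replicate 2 on ENSMUST00000195239.1 and the second places 23.8 and 15.4 TPM of replicate 2 on ENSMUST00000192109.5 and ENSMUST00000194068.5.

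For the rest of the family the programs differed in scale more than in order. The first quantifier was above the second for 56 genes in replicate 1 and 57 in replicate 2. The median log2 ratio of the first over the second quantifier was 0.30 in replicate 1 and 0.29 in replicate 2, beside 0.14 and 0.16 over all detected genes. Across the 58 genes Pearson's r between the programs was 0.97 in replicate 1 and 0.94 in replicate 2, and without Pcdhgc4 0.99 in both. Spearman's rho was 0.957 in replicate 1 and 0.963 in replicate 2, and without Pcdhgc4 0.955 and 0.962. Leaving that gene out thus did not raise the agreement in rank. Within an array the order could still differ by program, as it did for the highest alternate alpha gene. After Pcdhgc4, the largest gaps were at Pcdhb6, at 3.71 TPM by the first and 1.89 TPM by the second quantifier in replicate 1 and 2.87 and 1.78 TPM in replicate 2, and at Pcdha11, where the second quantifier was higher. Of the first quantifier's Pcdhb6 level, 0.87 TPM in replicate 1 and 0.40 TPM in replicate 2 lay on a transcript of 681 bases. That transcript had 7.09 and 4.44 expected counts, and the second quantifier listed it at 0.

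**Figure D5:**
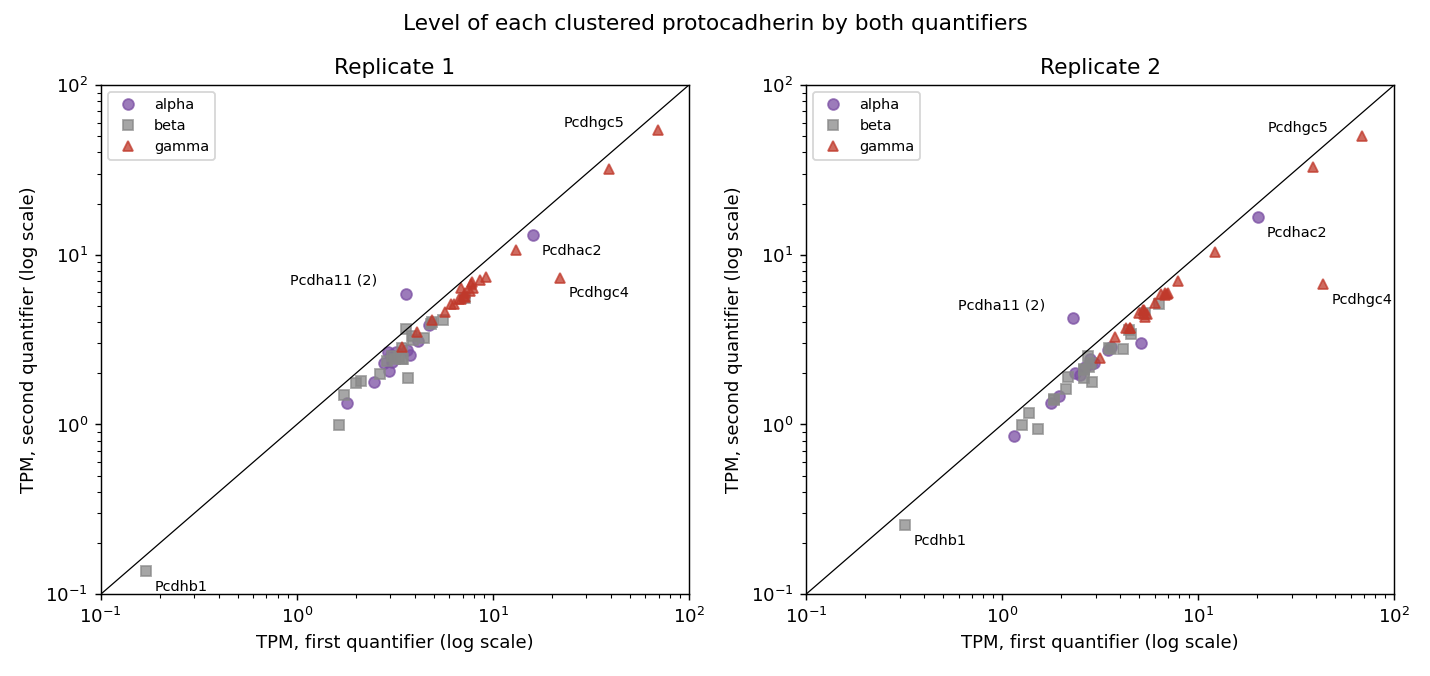
TPM of each of the 58 genes by the first quantifier (horizontal, log scale) against the second (vertical, log scale) in each library, coloured by array, with the line of equality. Most points lie slightly below the line, Pcdhgc4 lies far below it, and Pcdha11 (2), the gene with ID ENSMUSG00000102206.5, lies above it.

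The symbol Pcdha11 is carried by 2 gene IDs in the annotation. The gene ENSMUSG00000007440.10 starts at position 37005203, near the start that RefSeq gives for Pcdha10 at 37005320, and had 3.64 TPM in replicate 1 and 2.50 TPM in replicate 2. The gene ENSMUSG00000102206.5 starts at 37010712, near the RefSeq start of Pcdha11 at 37010858, and had 3.60 TPM in replicate 1 and 2.31 TPM in replicate 2 by the first quantifier, against 5.87 and 4.21 TPM by the second. For this second ID the first quantifier placed 100% of the level in replicate 1 and 73.7% in replicate 2 on transcripts annotated as retained introns, while the second placed 49.9% and 27.6% there. The level of its coding transcripts thus ranged, by program, between 0 and 2.94 TPM in replicate 1 and between 0.61 and 3.05 TPM in replicate 2. Of the upper values, 2.94 TPM in replicate 1 and 2.44 TPM in replicate 2 lay on 1 coding transcript of 625 bases. That transcript had 20.7 and 23.1 estimated counts.

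Most of the family's RNA was on coding transcripts. By the first quantifier protein-coding transcripts held 92.9% of the members' TPM in replicate 1 and 94.7% in replicate 2. Over all annotated transcripts, those of noncoding genes included, the share was 43.6% and 44.0%. The members' share counts ENSMUST00000195239.1, at 13.2 TPM in replicate 1 and 35.4 TPM in replicate 2, which the second quantifier listed at 0. The 10 annotated retained-intron transcripts, from 9 genes, held 5.05% in replicate 1 and 2.96% in replicate 2, and 5.52% and 2.91% by the second quantifier. None belonged to the beta array. Of these 10, 9 were higher in replicate 1 by the first quantifier, beside 80.8% of 13550 retained-intron transcripts of all genes with 10 or more expected counts in either library, and 10 of 10 by the second, beside 81.7%. Over all genes, retained-intron transcripts held 5.30% of TPM in replicate 1 and 3.72% in replicate 2, and 5.38% and 3.87% by the second quantifier. Their share was thus higher in replicate 1 among the members and over all genes, and whether the members' shift differs from that of all genes was not tested.

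The genes described next were below the members' median. Gm38182, described above, exceeded it by the second quantifier but not by the first. Taf7, a subunit of the general transcription factor TFIID that lies between the beta and gamma arrays on the opposite strand, had 3.34 TPM in replicate 1 and 2.96 TPM in replicate 2. Gm36858, a pseudogene in the alpha array, had 1.51 TPM in replicate 1 and 1.15 TPM in replicate 2. Gm42416, a predicted gene whose annotated span runs from the alpha array into the gamma array and which holds 2801 stretches shared with members, had 1.39 TPM in replicate 1 and was listed at 0 in replicate 2 by the first quantifier, against 1.35 and 0.472 TPM by the second. Its difference between the libraries was called with the first quantifier (adjusted p = 0.000237, edgeR) and not with the second (adjusted p = 1.00, edgeR). By the first quantifier its bounds nevertheless overlapped between the libraries, from 0.000383 to 2.65 TPM in replicate 1 and from 9.84e-06 to 0.936 TPM in replicate 2. Every annotated antisense gene in the region was under 1 TPM in both libraries.

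The genes known to act on promoter choice were measured beside the arrays, and none was called different between the libraries. Of 11 genes for CTCF and cohesin, 0 were called and 0 had an unadjusted p under 0.05 (edgeR, and 0 called by DESeq2), beside the 0.806% of all genes. Ctcf, the zinc-finger protein that bridges these promoters and their enhancers, had 34.7 TPM in replicate 1 and 34.8 TPM in replicate 2, and Rad21, a cohesin subunit, had 34.8 and 35.6 TPM. The list ran from Nipbl, the cohesin loader, at a mean of 16.2 TPM to Pds5a, a regulator of cohesin release, at 44.8 TPM. Of 12 genes for DNA methylation and silencing, 0 were called and 0 had an unadjusted p under 0.05 by the same tests. Dnmt3b, the de novo methyltransferase known in mice to methylate these promoters in the embryo, was the lowest at 0.98 TPM in replicate 1 and 0.85 TPM in replicate 2. Dnmt1, the maintenance methyltransferase, had 18.9 TPM and 17.5 TPM, and the highest was Ehmt2, a histone H3 methyltransferase, at 97.9 TPM and 86.9 TPM.

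Most downstream partners had levels above those of single alternate genes. All 9 genes of the WAVE complex, the actin regulator recruited by several protocadherin tails, were detected, with means from 19.0 TPM for Wasf2 to 269 TPM for Nckap1, and 0 of 9 were called. Of 10 kinases and processing partners, means ran from 1.59 TPM for Ret, a receptor tyrosine kinase, to 358 TPM for Ptk2b, the kinase PYK2 known to bind the alpha and gamma tails, and 0 of 10 were called. Fyn, a Src-family kinase, had 55.5 TPM in replicate 1 and 53.7 TPM in replicate 2, and Ptk2, the focal adhesion kinase also known to bind the tails, had 69.4 and 52.0 TPM. No gene of these 2 lists had an unadjusted p under 0.05 with edgeR or DESeq2.

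The 12 protocadherins outside the arrays, each a single gene with its own promoter, offered a comparison within the wider family. The 58 clustered genes had a median of mean levels of 3.79 TPM, against 33.0 TPM for these 12. Pcdh1 was the highest of the 12, at 188 TPM in replicate 1 and 167 TPM in replicate 2, and Pcdh12, known from endothelium, the lowest at 0.30 and 0.18 TPM. The whole clustered family, at 398 TPM in replicate 1 and 381 TPM in replicate 2, summed to less than these 12 genes at 537 and 485 TPM. Of the 11 of these that were tested, 0 were called and 1, Pcdh15, had an unadjusted p under 0.05 (edgeR, and 0 of either kind by DESeq2).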

How the data were processed

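The members and gene lists were chosen with earlier results of these data known. Total RNA-seq tables of 2 libraries of 1 group were used. The deposited expected counts and TPM of the gene table (first quantifier) stand under RSEM's column names, and the estimated counts and TPM that the authors deposited in a further transcript table (second quantifier) under kallisto's. Program versions were not given in the sources used here. All tables refer to mm10 and GENCODE M21, per the submitters' processing notes. The deposited TPM bounds (unit signal) come from the gene table and their level is unstated, and the deposited isoform percent gave no reported result. The second quantifier's values were summed over each gene's transcripts. Depth was 23458117 and 29584307 expected counts over all rows of the first quantifier, including 49222 and 71775 on ERCC spike-ins, and 25213972 and 31237997 by the second.

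Expected counts were rounded and tested in edgeR 4.0.16 (R 4.3.3): TMM scaling, an intercept-only fit, trended dispersion, and each gene's residual deviance against chi-square with 1 degree of freedom, since no contrast exists within 1 group. Genes needed 1 CPM in at least 1 library. Adjusted p under 0.05 was called, and log2 ratios use a prior count of 2. The common biological coefficient of variation was 0.191. DESeq2 1.42.0 served as an alternative. The procedure was tested on simulated data (5 runs, 200 changed genes each). Quantifier ratios use TPM + 0.1. Constant exons are exact exons shared by 10 or more genes of an array. Each p-value asks whether a gene differs between the 2 libraries by more than the trend of all genes. That trend was estimated from the same 2 libraries, so a gene not called may still differ between them.

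Named genes are, per array, the 3 highest and the lowest by mean TPM, the C-type genes, genes past the test, the 2 highest and 2 lowest log2 ratios, and the 3 largest gaps between quantifiers; of other lists, the highest, the lowest and examples in list order. Pcdhga11, Pcdhgb8, Pcdhb21, Pcdhga4, Pcdh15 and the genes among the arrays were named after their values were seen. No correction for alleles or for RNA quality was made.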

Additional observations from a re-analysis of the deposited data

How the results depend on the processing

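Among the log2 ratios of single genes, 186 values under alternatives kept their direction and side of the threshold and 39 changed direction, none of them called under either setting. With ERCC scaling the values that turned positive were, for members, Pcdhac1 0.10 and Pcdhgc3 0.11, and, for listed genes, Ctcf 0.10, Rad21 0.0028, Smc1a 0.18, Wapl 0.15, Dnmt1 0.14, Wiz 0.17, Ehmt2 0.21, Pcdh8 0.22, Pcdh10 0.12, Pcdh11x 0.13, Pcdh20 0.19, Wasf1 0.045, Wasf3 0.15, Cyfip1 0.17, Cyfip2 0.17, Nckap1 0.066, Abi1 0.038, Abi2 0.12, Brk1 0.091, Fyn 0.051, Ptk2b 0.14, Pdcd10 0.21, Axin1 0.093, Marcks 0.057, Nlgn1 0.15 and Nlgn2 0.11. With the second quantifier those that turned negative were, for members, Pcdhb6 -0.087, Pcdhb9 -0.059 and Pcdhgc5 -0.067, and, for listed genes, Pds5a -0.0038, Pds5b -0.0097, Pcdh1 -0.010, Pcdh7 -0.076, Pcdh9 -0.034, Pcdh17 -0.063, Pcdh18 -0.018 and Adam10 -0.074. The other 2 values lost the call, both for Pcdhgc4: with ERCC scaling (adjusted p = 0.947, edgeR) and with the second quantifier (adjusted p = 1.00). Its adjusted p over all settings ranged from 0.00845 with DESeq2 size factors to 1.00, with 0.466 under a common dispersion and 0.0577 with DESeq2's likelihood ratio test. The count of members called was 0 with ERCC scaling, a common dispersion, DESeq2's test, the second quantifier and without the transcript ENSMUST00000195239.1, and 1 otherwise. In the first 4 of these settings 2 members had an unadjusted p under 0.05. A common dispersion called 341 of all genes, against 130.

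The second quantifier gave mean sums of 47.6 TPM for alpha, 54.1 for beta and 195 ± 13.1 (SD, n = 2) for gamma. It also gave a C-type gamma share of 47.0%, a gamma share of 65.7% and a median log2 ratio of 0.051. ERCC scaling gave a median log2 ratio of 0.39. Posterior mean TPM gave 55.0 for alpha and 254 for gamma, and protein-coding transcripts alone 52.2 and 244. Without ENSMUST00000195239.1, a choice made after seeing the data, gamma summed to 239 ± 17.3 TPM (SD, n = 2) and its share to 65.5%. Leaving out each library gave 55.6 to 58.2 TPM for alpha, 63.4 to 75.1 for beta, 262 to 264 for gamma, 32.3% to 41.3% and 49.2% to 57.3% for the C-type shares, 66.5% to 68.8% for the gamma share, and 57 detected members both times. No paired analysis was possible because the 2 libraries form 1 group.

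With 2 animals, the spread is known from 1 difference per gene, and low counts limit the alternate genes, most of which are not separated from their neighbours in level. Alpha and gamma levels depend on how shared constant-exon reads were divided.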
